A study of Mus musculus with 11 samples.

Results

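The galectin genes Lgals1, Lgals3, Lgals4, Lgals7, Lgals8 and Lgals9 were followed through sorted epithelial cells of the pubertal mouse mammary gland, 6 of the 27179 Entrez genes counted. The list was taken as given, and the symbols were matched through the gene identifiers. Lgals9 was put on it because its level was lower in basal and higher in luminal cells of terminal end buds (TEBs) than of ducts in these same libraries, so its change between TEB and duct is described and not tested. TEBs are the bulbous growing tips of the pubertal ductal tree, and ducts are the structures left behind them. All mice were female C57BL/6 animals aged 5 weeks that carried E-cadherin-GFP, which guided the microdissection of TEBs and ducts. From each structure, cells that were lineage-negative (without CD31, CD45 and Ter119), CD29+ and CD24+ were sorted as luminal where GFP was high and as basal where GFP was low, and no other treatment was applied. At least 2 mice were pooled per replicate, and the 4 groups held 3 libraries of basal duct, 3 of basal TEB, 2 of luminal duct (replicates 1 and 3) and 3 of luminal TEB.

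Galectins are small proteins that bind beta-galactosides, the galactose-ended sugars of cell-surface and matrix glycoproteins, through a conserved carbohydrate-recognition domain. They are made in the cytosol and leave the cell without a classical signal peptide, so they act both inside cells and on the sugars outside. Galectin-1 and galectin-7 are of the prototype form with a single such domain, galectin-3 is the chimera form with an added proline- and glycine-rich tail, and galectin-4, galectin-8 and galectin-9 are of the tandem-repeat form. Galectin-7 is best known from stratified epithelia, galectin-1 from mesenchymal and muscle-type cells, and galectin-3 from simple epithelia and macrophages.

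On mm10 (GRCm38), Lgals7 (Entrez 16858) lies at chr7:28863796-28866285 and its nearest listed neighbour, Lgals4 (Entrez 16855), at chr7:28833122-28841710. Lgals1 (Entrez 16852) lies at chr15:78926725-78930465 and Lgals3 (Entrez 16854) at chr14:47373860-47386167. Lgals8 (Entrez 56048) lies at chr13:12439402-12464977 and Lgals9 (Entrez 16859) at chr11:78962979-78984924. Each is a protein-coding gene, and the counts were taken over whole genes, so no exon or isoform can be told apart. Lgals1 overlaps the predicted gene Gm30368 and has a pseudogene copy, Lgals1-ps1. Neither had a row in the count table, and how shared reads were treated is not given in the sources used here.

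The sequence before the start site is shown for the galectin that made up most of the basal total, the one that made up most of the luminal total, and the one that went opposite ways in the 2 cell types. Each comes from the 250 bases before the RefSeq start on GRCm38.p6, written 5′ to 3′ on the gene's strand. It is cut where the first annotated exon begins, and so stops short of that start. The first 93 of these bases are shown for Lgals7, 203 for Lgals3 and 228 for Lgals9. For Lgals7 the start used is a later one, so the stretch lies inside the gene span given above. Capitals mark a GC box (GGGCGG) in Lgals7, chr7:28864136-28864228 on the plus strand; the E-box CAGGTG in Lgals3, chr14:47373610-47373812 on the plus strand; and the reverse strand of an interferon-response element (GAAA, any 2 bases, GAAA) in Lgals9, chr11:78984947-78985174 on the minus strand.
Lgals7: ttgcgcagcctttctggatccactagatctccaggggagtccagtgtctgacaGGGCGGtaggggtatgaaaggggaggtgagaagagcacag
Lgals3: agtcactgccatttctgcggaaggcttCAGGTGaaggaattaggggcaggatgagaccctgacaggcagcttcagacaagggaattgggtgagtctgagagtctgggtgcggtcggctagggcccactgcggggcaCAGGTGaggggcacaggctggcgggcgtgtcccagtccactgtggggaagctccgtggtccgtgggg
Lgals9: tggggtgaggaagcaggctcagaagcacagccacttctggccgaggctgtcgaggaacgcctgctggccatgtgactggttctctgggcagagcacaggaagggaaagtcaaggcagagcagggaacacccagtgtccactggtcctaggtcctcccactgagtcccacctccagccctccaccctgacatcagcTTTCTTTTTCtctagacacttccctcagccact
Read on both strands, the GC box stood in 35.7% of 32851 RefSeq windows of 300 bases (250 before the start and 50 after it), CAGGTG in 20.2% and the interferon-response element in 3.44%. TATAAA, in 13.6% of windows, and the AP-1 site TGANTCA, in 7.81%, had no match in the windows of these 3 genes. The full window was 57.7% G and C for Lgals7, 67% for Lgals3 and 58% for Lgals9, against a median of 52.7% over all windows. Beyond the stretches shown, the Lgals3 window held 2 further GC boxes around its start and the Lgals9 window 1 further interferon-response element just after its start. A match is a run of letters and was not tested as a binding site.

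Libraries held 27989137 to 49221436 assigned counts, and all 6 galectins passed the filter on low counts that left 17370 genes. Mitochondrial genes took 4.34% to 10.9% of counts in 8 libraries, and 17.8%, 28.5% and 37.5% in basal TEB replicate 3, luminal duct replicate 3 and basal TEB replicate 1. The sorts went with their labels. The summed level of 8 basal genes (among them Krt14 and Acta2) was 5671 to 20419 CPM (counts scaled to the size of the library) in basal libraries and 15.5 to 270.5 in luminal ones, and that of 4 pan-luminal genes (among them Krt8 and Krt18) was 10774 to 16358 CPM in luminal and 439 to 694 in basal libraries. Luminal duct replicate 3 also held 250 CPM over 6 fibroblast genes and 88.2 CPM over 10 immune genes, against 6.03 and 12.7 in replicate 1. In basal libraries the fibroblast sum was 430 to 840 CPM in duct and 226 to 406 in TEB. Basal duct replicate 2 held 840 CPM over fibroblast, 93.0 over immune and 175 over 5 endothelial genes.

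Basal cells carried mainly Lgals7 and Lgals1, and luminal cells mainly Lgals3, followed by Lgals7 in ducts and by Lgals9 in TEBs. Per kilobase of transcript, so that genes can be set against each other (RPKM, n = 3 per group and 2 for luminal duct), the 6 galectins summed to 1164 ± 57.4 (SD) in basal duct, 1069 ± 278 in basal TEB, 503 ± 78.2 in luminal duct and 268 ± 14.0 in luminal TEB. Lgals7 made up 70.3% ± 3.8 of that sum in basal duct and 90.4% ± 2.8 in basal TEB, against 10.4% ± 1.5 in luminal duct and 4.85% ± 1.7 in luminal TEB. Lgals3 made up 71.5% ± 6.7 in luminal duct and 62.0% ± 2.1 in luminal TEB, and at most 0.182% in any basal library. Lgals1 gave 22.7% ± 2.1 of the basal duct sum and 6.71% ± 2.2 of the basal TEB sum. Lgals9 went from 6.46% ± 0.89 in luminal duct to 24.5% ± 2.6 in luminal TEB. Lgals4 and Lgals8 were minor, with Lgals4 at 0.712% to 8.47% and Lgals8 at 0.559% to 6.12% of the sum in any library. These shares depend on each other and were not tested.

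**Figure D1:**
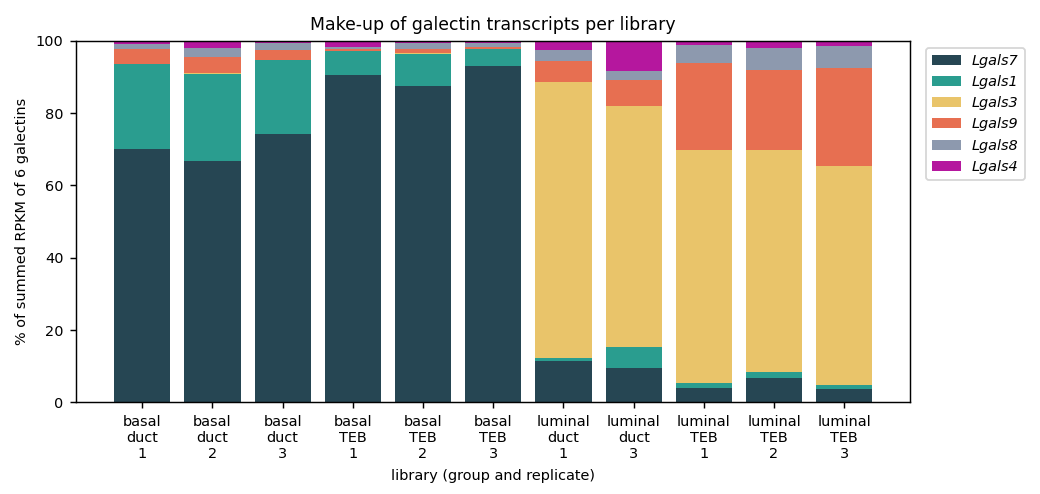
Share of each galectin in the summed RPKM of the 6 galectins (vertical axis, %), 1 stacked bar per library, with groups and replicates along the horizontal axis. Lgals7 fills 66.6% to 93.1% of every basal bar and Lgals3 60.4% to 76.3% of every luminal bar.

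Averaged over ducts and TEBs, 3 of the 5 galectins other than Lgals9 differed between basal and luminal cells, with Lgals7 and Lgals1 higher in basal and Lgals3 higher in luminal cells. Of all genes tested in that comparison, 35.6% were called at an edgeR adjusted p under 0.05. Taken within ducts alone and within TEBs alone, the same 3 galectins were called each time, where 22.3% and 25.1% of all genes were. In bulk libraries, fewer cells of a type and less RNA per cell cannot be told apart.

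Lgals7, which encodes galectin-7, was the most abundant galectin of basal cells. Its level was 514, 456 and 495 CPM in basal duct, 672, 391 and 675 in basal TEB, 30.6 and 31.3 in luminal duct and 6.46, 10.3 and 6.26 in luminal TEB. Every basal library stood above every luminal one, as for 23.3% of all genes in either direction. The basal groups overlapped, and both luminal duct libraries stood above the 3 luminal TEB libraries, a lack of overlap seen for 43.7% of all genes. The log2 fold change of basal over luminal was 3.98 ± 0.32 (SE) in ducts (adjusted p = 6.59e-06) and 6.24 ± 0.30 in TEBs (adjusted p = 1.5e-07). Between TEB and duct it was 0.25 ± 0.24 in basal cells, which did not pass the test (adjusted p = 0.693).

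In luminal cells Lgals7 fell from duct to TEB by 2.01 ± 0.27 on the log2 scale (adjusted p = 0.00864), the only one of 5 galectins tested to be called, where 1.41% of all genes were. The TEB change differed between the cell types, with a log2 difference of basal minus luminal change of 2.26 ± 0.36 (adjusted p = 0.0253). That was again 1 of 5, against 0.443% of all genes, and its adjusted p was under 0.05 in 10 of 18 other settings, over a range of 1.62e-06 to 0.161. With the replicate number as a block it was 0.0714, by library size only 0.161, and without the 2 libraries of highest mitochondrial share 0.0532. Single libraries whose removal ended the call were replicates 1 (0.0734) and 2 (0.0619) of basal duct, replicate 3 of basal TEB (0.0755), and replicates 1 (0.0745) and 3 (0.0797) of luminal TEB. The fall in luminal cells was lost only when libraries were scaled by size alone (a fall of 1.62, adjusted p = 0.0661), a scaling that moved the median log2 change of all genes from 0.04 to 0.42. Relative to that median, the Lgals7 change was -2.05 with the main scaling and -2.04 by size alone.

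Basal marker genes moved with Lgals7 in the luminal libraries. Their sum was 99.01 and 270.5 CPM in luminal duct and 28.6, 26.0 and 15.5 CPM in luminal TEB. Of the 8 genes, 7 were higher in both duct libraries than in all TEB libraries. Counting either direction, these groups did not overlap for 43.7% of all genes. As a percentage of the basal mean of the same structure, Lgals7 stood at 6.27% and 6.41% in luminal duct and 1.11%, 1.78% and 1.08% in luminal TEB. Single basal markers stood at a median of 0.950% (0.389% to 2.37%, 8 genes) in luminal duct and 0.402% (0.221% to 2.07%) in luminal TEB. Luminal duct replicate 3 held more of the basal marker sum than replicate 1 (1.45% against 0.531% of the basal mean), while Lgals7 was at nearly the same level in both. The part of basal RNA in the fall of Lgals7 was not tested beyond these values. Over 6 skin keratinocyte genes (skin is another site of Lgals7) the sum was 8.63 to 11.3 CPM in basal duct, 11.4 to 14.9 in basal TEB, 37.7 and 13.7 in luminal duct and 30.8, 11.03 and 7.92 in luminal TEB. Of these, 2 were higher in both luminal duct libraries than in all luminal TEB libraries, Krtdap was at 0 in all 5, and their part was not tested.

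**Figure D2:**
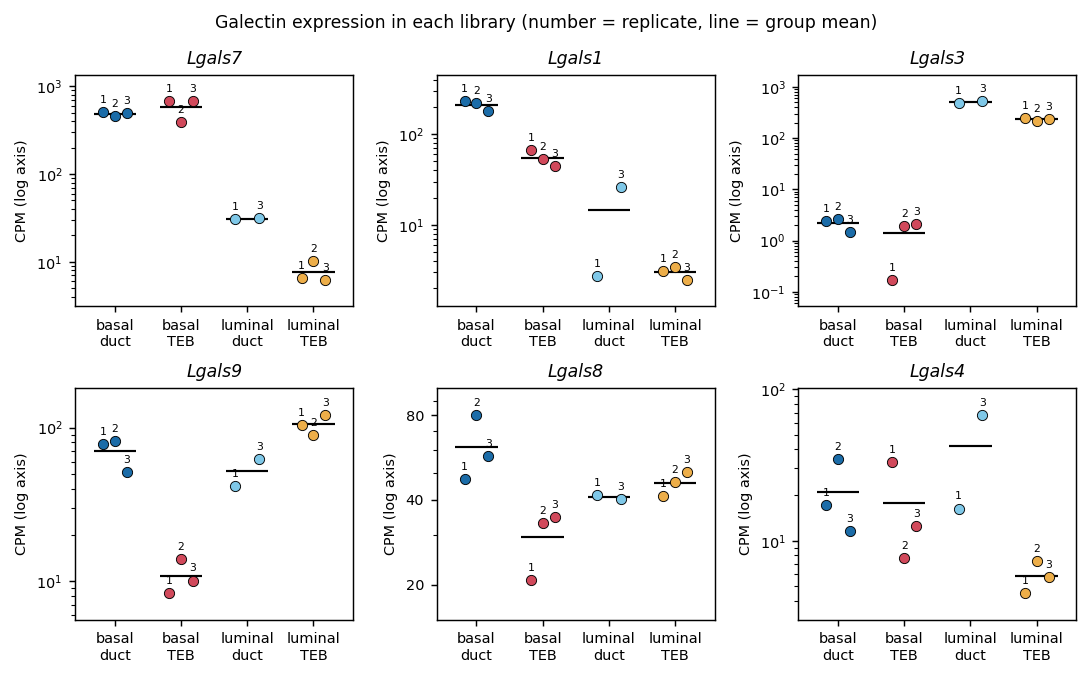
Level of each galectin in each library (CPM, log axis) by group, with 1 panel per gene, replicate numbers beside the points and a line at the group mean. Lgals7 and Lgals1 are high in the 6 basal libraries, Lgals3 in the 5 luminal ones, and Lgals9 runs from 8.37 CPM in basal TEB to 121 CPM in luminal TEB.

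Lgals1, which encodes galectin-1, was the other galectin of basal cells. It stood at 230, 223 and 182 CPM in basal duct, 67.1, 53.1 and 44.1 in basal TEB, 2.71 and 26.1 in luminal duct and 3.09, 3.39 and 2.49 in luminal TEB. All 6 basal libraries were above all 5 luminal ones, and the basal duct libraries were all above the basal TEB libraries. Basal exceeded luminal cells by 3.89 ± 0.71 on the log2 scale in ducts (adjusted p = 0.00184) and by 4.19 ± 0.61 in TEBs (adjusted p = 0.000297). The duct difference was called with either luminal duct library left out, at 6.28 without replicate 3 and at 3.02 without replicate 1.

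Although the groups did not overlap, as for 20.8% of all genes, the Lgals1 difference of -1.95 ± 0.55 between basal TEB and basal duct did not pass the test (adjusted p = 0.125). None of the 5 galectins tested was called in that comparison by edgeR, where 1.32% of all genes were. Lgals1 and Lgals8 were the 2 with an unadjusted p under 0.05, a level at which the share of all genes was not counted. DESeq2 called both, but it also called more of all genes than edgeR in that comparison (counts at the end). The Lgals1 result hung on the 2 luminal duct libraries, which lay 9.64-fold apart and entered the shared estimate of its spread. With luminal duct replicate 1 or replicate 3 left out the adjusted p was 0.00153 or 0.00151 (1 duct library then stands alone and is assumed to vary like the other groups), and with the basal groups alone it was 0.00315. Of the 6 fibroblast genes (fibroblasts also express Lgals1), 1 was higher in all basal duct than in all basal TEB libraries, and they summed to 430, 840 and 491 CPM in basal duct and 227, 406 and 226 CPM in basal TEB. The basal marker sum was 16527 to 20419 CPM in basal duct and 5671 to 8752 in basal TEB, with no overlap in 8 of 8 genes. Their part in the lower Lgals1 was not tested.

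In luminal cells the direction of the Lgals1 change rested on 1 library. The log2 difference between luminal TEB and duct was -2.26 ± 0.61 (adjusted p = 0.093) with both duct libraries, 0.14 (adjusted p = 0.936) without luminal duct replicate 3, and -3.12 (adjusted p = 0.000195) without replicate 1. Lgals1 was 9.64-fold higher in replicate 3 than in replicate 1. Higher there too were 6 of 6 fibroblast, 7 of 8 basal, 4 of 5 endothelial, 5 of 10 immune and 3 of 6 luminal progenitor genes. So were 1 of 6 mature luminal and 0 of 4 pan-luminal genes. The share of all genes higher in replicate 3 was not counted, and the part of these cells in Lgals1 was not tested. The difference between cell types in its TEB change was likewise 0.30 ± 0.81 (adjusted p = 0.913) with all libraries and -2.09 (adjusted p = 0.036) without luminal duct replicate 3.

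**Figure D3:**
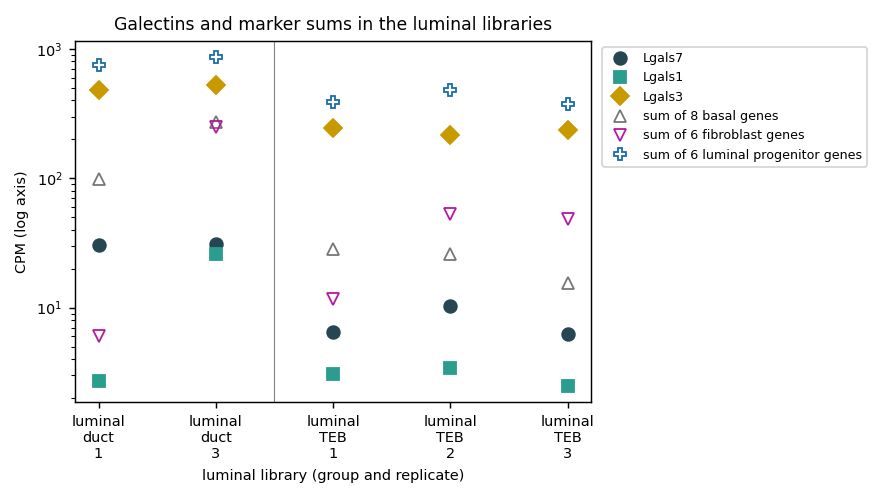
Lgals7, Lgals1 and Lgals3 (filled) and summed basal, fibroblast and luminal progenitor marker genes (open) in the 5 luminal libraries (CPM, log axis). Lgals1 (26.1 CPM) and the fibroblast (250), basal (270.5) and luminal progenitor (862) sums are each highest in luminal duct replicate 3. Lgals7 is at 30.6 and 31.3 CPM in the luminal duct libraries.

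Lgals3, which encodes galectin-3, marked luminal cells. It stood at 480 and 524 CPM in luminal duct and 246, 218 and 238 in luminal TEB, but at 2.39, 2.63 and 1.49 in basal duct and 0.173, 1.92 and 2.13 in basal TEB. Luminal and basal libraries were far apart, and the lowest value rested on 3 counts in basal TEB replicate 1. The log2 difference of basal minus luminal was -7.85 ± 0.57 in ducts (adjusted p = 3.31e-06) and -7.27 ± 0.55 in TEBs (adjusted p = 2.04e-06). Galectin-3 is also abundant in macrophages. Over 10 immune genes the sum was 12.7 and 88.2 CPM in luminal duct and 6.10, 17.4 and 6.51 in luminal TEB, of which Cd3e, Fcgr1 and Tyrobp were at 0 in both duct libraries, and their part in Lgals3 was not tested. Lgals3 was 1.09-fold higher in luminal duct replicate 3 than in replicate 1.

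Within luminal cells both duct libraries had more Lgals3 than all 3 TEB libraries, a lack of overlap seen for 43.7% of all genes in either direction. By group means the duct level was 2.15-fold higher. That difference of -1.10 ± 0.45 on the log2 scale did not pass the test with all libraries (adjusted p = 0.248), and passed it with the luminal groups alone (0.0282) and without basal TEB replicate 1 (0.0303). Of 6 luminal progenitor genes, the summed level was 745 and 862 CPM in luminal duct and 389, 478 and 376 CPM in luminal TEB. All 6 genes were higher in both duct libraries than in all TEB libraries. So were 0 of 6 mature luminal genes and 1 of 4 pan-luminal genes. Whether the make-up of the luminal sort had a part was not tested. In basal cells Lgals3 differed by -0.52 ± 0.46 between TEB and duct (adjusted p = 0.658).

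Lgals9, which encodes galectin-9, a tandem-repeat galectin known as an attractant of eosinophils and a ligand of immune receptors, was chosen for going opposite ways in the 2 cell types. It stood at 78.6, 81.5 and 51.6 CPM in basal duct and 8.37, 13.9 and 10.1 in basal TEB, and at 41.3 and 62.8 in luminal duct and 104, 88.9 and 121 in luminal TEB. The basal TEB libraries were the lowest of all and the luminal TEB libraries the highest, while the duct groups overlapped. As a description, the log2 change from duct to TEB was -2.70 in basal and 1.009 in luminal cells, a difference of -3.71 between them. The log2 difference of basal minus luminal was 0.44 in ducts and -3.27 in TEBs, also as a description. Their average, -1.42, rests on the TEB libraries that chose the gene and is a description too. Immune genes summed to 27.1 to 93.0 CPM in basal duct, 29.8 to 34.3 in basal TEB, 12.7 and 88.2 in luminal duct and 6.10 to 17.4 in luminal TEB, and their part in Lgals9 was not tested.

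Lgals8, which encodes galectin-8, a binder of integrins and of sugars exposed on damaged vesicles, was present in every library at 20.7 to 79.96 CPM. It stood at 47.3, 79.96 and 57.5 CPM in basal duct, 20.7, 33.1 and 34.8 in basal TEB, 41.6 and 40.3 in luminal duct and 41.1, 46.1 and 50.3 in luminal TEB. The basal TEB libraries were below all others. Basal TEB and basal duct did not overlap, in either direction, for 20.8% of all genes. The log2 difference of basal TEB from basal duct, -1.06 ± 0.25, did not pass the test (adjusted p = 0.0715). It passed in 1 of 19 other settings, DESeq2 (0.00483). Between luminal TEB and duct the difference was 0.16 ± 0.28 (adjusted p = 0.814). The average difference between basal and luminal cells was -0.02 ± 0.18 (adjusted p = 0.954), and its sign changed in 5 of 18 other settings.

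Lgals4, which encodes galectin-4, best known from the gut epithelium, varied widely within groups. It stood at 17.2, 34.6 and 11.6 CPM in basal duct, 33.3, 7.75 and 12.4 in basal TEB, 16.3 and 67.98 in luminal duct and 4.53, 7.32 and 5.78 in luminal TEB. In each group the library with the most Lgals4 was the one with the largest mitochondrial share, which was 10.9%, 37.5%, 28.5% and 4.77% in these 4 libraries. The part of RNA quality in these values was not tested. Both luminal duct libraries were above the luminal TEB libraries, a lack of overlap seen for 43.7% of all genes in either direction. The log2 difference of -2.84 ± 0.70 did not pass the test (adjusted p = 0.0727). Without luminal duct replicate 3 that difference was -1.47 (adjusted p = 0.497), and without replicate 1 it was -3.53 (adjusted p = 0.0139). Without basal TEB replicate 1, which entered only the estimate of the spread, the adjusted p was 0.0404. The difference of basal minus luminal was -0.995 ± 0.68 in ducts (adjusted p = 0.323) and 1.60 ± 0.64 in TEBs (adjusted p = 0.0919).

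**Figure D4:**
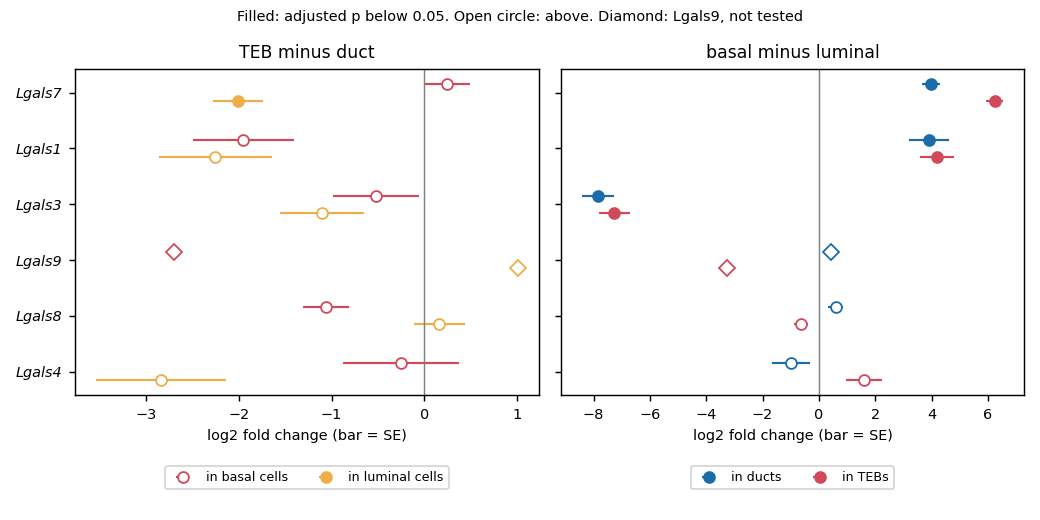
Log2 fold change of each galectin (horizontal axis) for TEB minus duct in basal and luminal cells (left) and for basal minus luminal in ducts and TEBs (right), with bars of 1 SE. Filled circles are changes with an adjusted p below 0.05, open circles those above it, and diamonds are Lgals9, which was not tested. In the left panel only Lgals7 in luminal cells (-2.01) is filled.

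By RPKM the order of levels was Lgals7 (818 ± 49), Lgals1 (265 ± 33), Lgals9 (44.5 ± 10.4), Lgals8 (20.7 ± 5.6), Lgals4 (14.7 ± 8.3) and Lgals3 (1.54 ± 0.43) in basal duct. In basal TEB it was Lgals7 (970 ± 273), Lgals1 (68.4 ± 14.5), Lgals4 (12.4 ± 9.5), Lgals8 (9.91 ± 2.58), Lgals9 (6.803 ± 1.79) and Lgals3 (1.00 ± 0.76). Lgals8 and its neighbour Lgals4 lay within their spread of each other in both basal groups, and so did Lgals8 and Lgals9 in basal TEB. In luminal duct it was Lgals3 (357 ± 22.1), Lgals7 (51.8 ± 0.83), Lgals9 (32.8 ± 9.6), Lgals4 (29.3 ± 25.4), Lgals1 (18.01 ± 20.7) and Lgals8 (13.7 ± 0.30), the last 4 within their spread of a neighbour. In luminal TEB it was Lgals3 (166 ± 10.3), Lgals9 (66.0 ± 10.2), Lgals8 (15.4 ± 1.5), Lgals7 (12.9 ± 3.8), Lgals4 (4.08 ± 0.97) and Lgals1 (3.74 ± 0.58), where Lgals8 and Lgals7, and Lgals4 and Lgals1, lay within their spread.

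For each galectin the genes of most like pattern were taken by Pearson's r of log2 CPM over the 11 libraries among 7698 genes, as a description that the difference between cell types can carry. Lgals7 was followed most closely by Mdk (r = 0.996), which encodes the growth factor midkine, Lama3 (0.991), a laminin chain of the basement membrane, and Antxr1 (0.991). Lgals1 was followed by Magi1 (0.986), Gpsm1 (0.985) and Plxdc2 (0.983), and Lgals3 by Wbp2 (0.993), Syngr2 (0.989) and Mapk9 (0.989). Lgals9 was followed by Gcc1 (0.964), Tnks1bp1 (0.963) and Hivep2 (0.951), Lgals8 by Cdadc1 (0.975), Jun (0.933) and Fcgrt (0.921), and Lgals4 by Ppp2r3d (0.976), Mapk8ip3 (0.959) and Ppp1r12c (0.959).

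Genes that make, cap or carry the sugars bound by galectins were taken as background to the family. Of 35 listed genes, 34 were measured and 33 tested. Averaged over structures, 14 were higher in basal and 11 higher in luminal cells, against 35.6% of all genes called, with a median log2 difference of 0.33 against 0.08 over all genes. From duct to TEB, 1 of 33 fell in basal cells, and 1 rose and 1 fell in luminal cells, where 1.32% and 1.41% of all genes were called.

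Among 11 glycoproteins that galectins bind, 7 were higher in basal and 4 in luminal cells (median 0.39). The largest differences among well-expressed ones were 3.74 ± 0.20 for Mcam and 3.44 ± 0.23 for Egfr, 2.69 ± 0.78 for Fn1 (fibronectin, which fibroblasts also make) and -2.99 ± 0.19 for the adhesion molecule Alcam. The Fn1 difference was 4.32 ± 1.07 in TEBs (edgeR adjusted p = 0.0107) and was not called in ducts (1.06 ± 1.08, adjusted p = 0.521). Lgals3bp, the galectin-3-binding glycoprotein, was named after its values were seen. It stood at 10.97 and 9.25 CPM in luminal duct and 29.7, 29.3 and 44.3 in luminal TEB, with 0 to 3.10 in basal libraries, and differed by -3.82 ± 0.88 (adjusted p = 0.0049), on the same side as Lgals3. None of the 11 was called between TEB and duct by edgeR. Of the 11, 1 in basal and 6 in luminal cells had an unadjusted p under 0.05. The share of all genes at that level was not counted, so nothing is drawn from these counts. DESeq2, which called more of all genes than edgeR in both comparisons, called 1 (Egfr) and 3 (Cd44, Itgb1 and Mcam). These names are given after their values were seen.

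Of 9 enzymes that branch N-glycans or build the N-acetyllactosamine repeats preferred by many galectins, 3 were higher in basal and 4 in luminal cells (median 0.15). Gcnt2, which makes the branched I antigen on such repeats, differed most, by -3.72 ± 0.24. It stood at 43.0, 21.1 and 26.9 CPM in basal duct, 2.71, 6.63 and 5.29 in basal TEB, 164 and 142 in luminal duct and 176, 159 and 178 in luminal TEB. The basal groups did not overlap, as for 20.8% of all genes in either direction. Gcnt2 fell from duct to TEB in basal cells by 2.61 ± 0.33 (adjusted p = 0.00311). It differed by 0.16 ± 0.34 in luminal cells (adjusted p = 0.851), an interaction of -2.78 ± 0.47 (adjusted p = 0.0291). The basal fall was called in 19 of 19 other settings, and the interaction in 10 of 18. Leaving out replicate 1 of basal duct, replicate 3 of basal TEB, replicate 3 of luminal duct or any luminal TEB library ended the interaction call (adjusted p up to 0.103), as did the replicate block (0.0672) and library size only (0.102). Mgat4b, an N-glycan branching enzyme, was higher in basal cells by 1.38 ± 0.15 and rose in luminal TEB over duct by 1.203 ± 0.23 (adjusted p = 0.0296). That rise was called in 11 of 19 other settings, and leaving out replicate 1 of basal duct, replicate 3 of luminal duct or any luminal TEB library ended the call (adjusted p up to 0.141). So did the replicate block (0.0601), library size only (0.107) and removal of the 2 libraries of highest mitochondrial share (0.0728). B4galt1, which adds the galactose of N-acetyllactosamine, and B3gnt2, which extends it, were higher in luminal cells (-1.11 ± 0.13 and -1.09 ± 0.34).

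Of 6 sialyltransferases, which cap galactose, 3 were higher in basal and 1 in luminal cells (median 1.78). St6gal1, whose alpha-2,6-linked sialic acid is known to block binding by several galectins, was higher in basal cells by 2.97 ± 0.23, St3gal4 by 1.73 ± 0.21 and St3gal3 by 1.30 ± 0.27. St3gal1 was higher in luminal cells (-1.39 ± 0.20) and fell from luminal duct to TEB by 1.52 ± 0.30 (adjusted p = 0.0324), a fall called in 11 of 19 other settings. Leaving out replicate 3 of basal duct or of basal TEB, replicate 1 of luminal duct or any luminal TEB library ended it, as did the replicate block (0.0708) and library size only (0.248). Of 3 cytosolic partners tested, Trim16 (-3.87 ± 0.41), which works with galectin-3 at damaged endosomes, and Tsg101 (-1.10 ± 0.22) were higher in luminal cells. Of 4 other galectin-fold genes, the galectin-related gene Lgalsl was called by edgeR, higher in basal cells by 1.29 ± 0.16. DESeq2 also called Lgals12, which lay on the luminal side (edgeR log2 difference -2.10 ± 0.86, adjusted p = 0.0768).

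**Figure D5:**
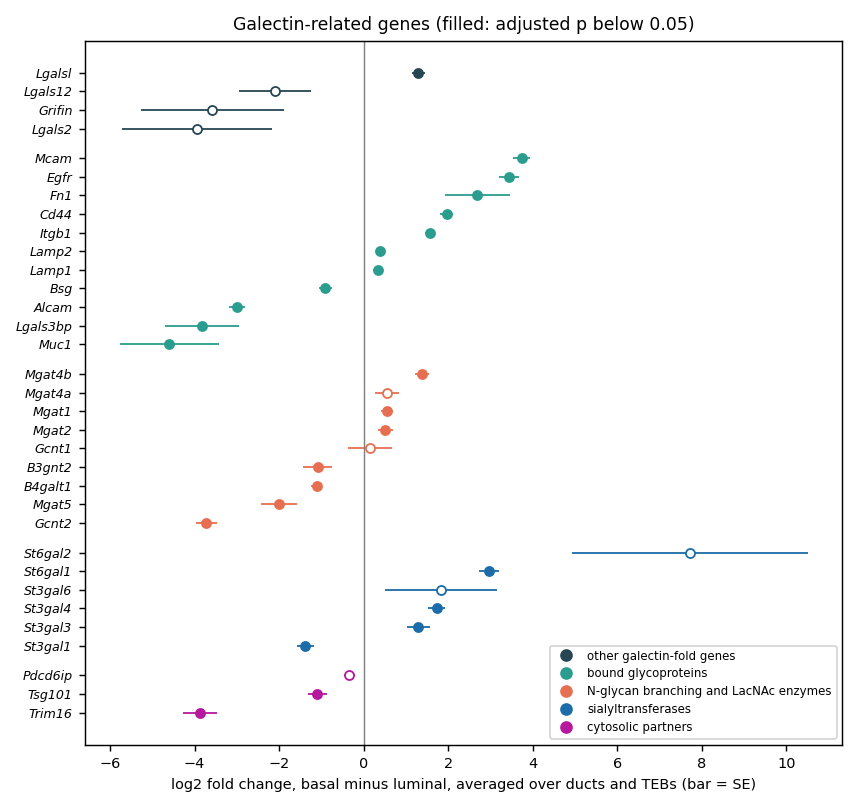
Log2 difference of basal minus luminal cells, averaged over ducts and TEBs, for 33 galectin-related genes grouped by role, with bars of 1 SE. Filled points have an adjusted p below 0.05, and St6gal1 (2.97) and Gcnt2 (-3.72) lie far out on opposite sides.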

How the data were processed

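RNA-seq counts of 11 libraries, in 4 groups given by the labels, were analysed. Per the study's methods, the authors prepared TruSeq libraries and sequenced both ends of fragments. Rsubread placed the reads on mm10, and its own RefSeq annotation defined the Entrez genes that were counted. The submitters' processing notes name featureCounts, and versions are not given in the sources used here. The deposited values are whole raw counts, neither filtered nor normalized, and the deposited gene lengths were used for RPKM. Another luminal duct library had too few cells and was dropped by the authors. The series-wide table was used, and its columns held the same values as the 11 single tables.

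Symbols came from RefSeq (GRCm38.p6) for 25275 of 27179 identifiers (93.0%), with Lgals6 unmatched, and promoter sequences for 5 of the 6 galectins, without an entry for Lgals1. Tests used edgeR 4.0.16 and DESeq2 1.42.0 under R 4.3.3, and tables Python 3.11.15. Genes were kept by filterByExpr (minimum count 10, minimum total 15) and scaled by TMM, with factors of 0.619 to 1.23. The quasi-likelihood test (glmQLFit and glmQLFTest) was run with 1 model of 4 groups over 17370 genes and Benjamini-Hochberg adjustment, and a gene was called at an adjusted p under 0.05. Every log2 fold change is from that model unless another setting is named. Its standard error (SE) is the absolute log2 fold change over the square root of F. CPM and RPKM use TMM-scaled library sizes, and log2 CPM a prior count of 2. The script was tested on simulated data. Separate pools of mice make the replicates within a group, so p-values measure the spread between pools. The main model treats libraries of different groups as unpaired, and whether they share pools is not settled.

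The galectins, the related gene lists and the marker lists were chosen with earlier results of these data known. Genes of like pattern were the 3 with the highest Pearson's r among named genes whose log2 CPM averaged 4 or more. From the lists, called genes were named, and where more than 4 passed, the 4 with the largest change above the same level. Alternatives were DESeq2 size factors, no filter, the DESeq2 Wald test, a replicate block, the compared groups alone and each library left out. Removal of mitochondrial genes, scaling by library size alone and removal of the 2 libraries of highest mitochondrial share were added after the data were seen.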

Additional observations from a re-analysis of the deposited data

Results flagged for a closer look

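The TEB change of Lgals7 differed between basal and luminal cells by test, and that of Lgals9 is given only as a description. For Lgals7 the TEB change, basal minus luminal, was 2.26 on the log2 scale by the interaction test (edgeR adjusted p = 0.0253). Its log2 change was 0.25 in basal and -2.01 in luminal cells. The Lgals7 difference was called in only 10 of 18 other settings, with an adjusted p of up to 0.161. For Lgals9 the difference was -3.71, with a log2 change of -2.70 in basal and 1.009 in luminal cells, the changes that chose the gene. This difference was not tested, since Lgals9 was chosen for it. Groups held 2 or 3 libraries, too few to look for single libraries that stand apart within a group.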

How the results depend on the processing

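The calls between cell types were the steadiest. Lgals1, Lgals3 and Lgals7 were called in the average over structures in 18 of 18 other settings, and in ducts and in TEBs in 19 of 19. The counts of called galectins between TEB and duct moved. In basal cells the 0 calls became 2 by the DESeq2 Wald test, 1 with the compared groups alone and 1 without the 2 libraries of highest mitochondrial share, and ran from 0 to 1 with single libraries left out. In luminal cells the 1 call became 3 without the filter, 3 by the DESeq2 Wald test, 2 with the compared groups alone and 0 by library size only, and ran from 1 to 3 with single libraries left out. For the difference between cell types the 1 call became 0 with the replicate block and 0 by library size only, and ran from 0 to 2 with single libraries left out.

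Tissue came from 3 pools of mice, and the labels do not say whether a replicate number marks a pool. Deviations from the group means correlated above 0.1 in 4 of 15 same-numbered pairs (median 0.0689, against -0.0264 for other pairs), and 7 of 11 libraries correlated best with their own number, so whether the numbers pair the samples is not settled by these values. Under the replicate block the Lgals7 difference was 2.23 (adjusted p = 0.0714), and the calls over all genes went from 245 to 125 in luminal cells and from 77 to 46 for the difference between cell types.

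Signs turned with single libraries left out for Lgals1 in luminal cells (-3.12 to 0.14) and in the difference between cell types (-2.09 to 1.17), where luminal duct replicate 3 was the library removed, for Lgals4 in basal cells (-1.06 to 0.30), in the average (-0.10 to 0.98) and in ducts (-1.69 to 0.37), and for Lgals8 in the average (-0.14 to 0.081). Without the 2 libraries of highest mitochondrial share these were 0.16 and -2.27 for Lgals1, 0.37 for Lgals4 in ducts and 0.063 for Lgals8. By library size only the Lgals1 difference was -0.39. The cause was not tested. Counts over all genes ran from 57 to 874 around 230 in basal cells, from 10 to 1305 around 245 in luminal cells and from 7 to 753 around 77 for the difference. Library size only gave 57, 10 and 15, and the DESeq2 Wald test 874, 1277 and 712. The difference gave 141 without the filter, luminal cells 603 with the compared groups alone, and removing the 2 libraries 372 and 198. The low end of depth was Lgals3 in basal cells, at 3 to 120 counts per library.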
